A study of Mus musculus with 6 samples.

Results

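Nuclear-encoded subunits of the mitochondrial respiratory chain were compared in bone marrow, between MxCDX2 mice and their control littermates. The members were the protein-coding genes, by the GENCODE M21 annotation, whose symbol begins with Ndufa, Ndufb, Ndufc, Ndufs, Ndufv, Uqcr, Cox4i, Cox5, Cox6, Cox7, Cox8 or Atp5, together with Sdha, Sdhb, Sdhc, Sdhd and Cyc1. Assembly factors named Ndufaf were left out. This rule uses names only and gave 86 of the 39179 genes in the count files, with 38 in complex I, 4 in complex II, 9 in complex III, 18 in complex IV and 17 in complex V.

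The respiratory chain sits in the inner mitochondrial membrane. Complexes I and II pass electrons to coenzyme Q, complex III passes them on to cytochrome c, complex IV reduces oxygen, and complex V, the ATP synthase, uses the resulting proton gradient to make ATP. Most subunits are nuclear genes made in the cytosol and imported, while a small set is encoded by mitochondrial DNA, and developing red cells and leukemic cells are both known to depend on respiration.

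RNA was sequenced from bone marrow of 6 littermates. The 3 MxCDX2 mice carried both RsCDX2, a knockin at Rosa26 that encodes human CDX2 once Cre has cut out a stop cassette, and Mx1Cre, a Cre transgene under the interferon-inducible Mx1 promoter, which is not restricted to blood cells. The 3 controls differed in genotype: control 1 was RsCDX2, control 2 was Mx1Cre and control 3 was wild type, so no control genotype was replicated. All 6 mice received poly(I:C) at 3 months of age, as 3 intraperitoneal injections of 10 µg/g, and RNA was prepared 6 weeks later.

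Between 38646101 and 49899650 reads per mouse were counted on genes. The mouse Cdx2 gene held 4, 0 and 0 reads in controls 1 to 3 and 152, 155 and 183 reads in MxCDX2 mice 1 to 3. Reads were aligned to the mouse genome, so whether these came from the human knockin or the mouse gene cannot be told apart. The marrow differed widely in cell makeup by its markers. All 12 erythroid markers found in the files were lower in MxCDX2 mice at an adjusted p below 0.05 (edgeR), 5 of 8 monocyte markers were higher and 8 of 10 neutrophil markers were lower. Without the wild-type mouse all 10 neutrophil markers were lower. In bulk RNA, fewer cells of a type and less RNA per cell cannot be told apart. The wild-type mouse stood apart from the other controls on the second principal component, which held 15.9% of the variance. Where the count of called subunits or list genes changes without it, both counts are given. For the single complexes the counts without it stand together with the other results of that fit.

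Subunit transcripts differed little between the groups, in a marrow where many other genes did. Normalized counts are reads brought to a common library size after TMM scaling, and a call at adjusted p means a Benjamini-Hochberg adjusted p below 0.05 over 15980 genes in the edgeR quasi-likelihood fit. Of the 82 members that passed the filter on low counts, 3 rose (3.66%) and 2 fell (2.44%), beside 9.91% of all tested genes higher and 11.8% lower. The members that rose were Ndufb5, Atp5c1 and Cox7a1, and those that fell were Cox6a2 and Cox6b2. With the replicate number as a block, Ndufb5, Cox6a2 and Cox6b2 kept their calls, so 1 member was higher, while Atp5c1 (adjusted p = 0.053, edgeR) and Cox7a1 (adjusted p = 0.067, edgeR) lost theirs. The block fit called 1457 of all 15980 tested genes higher and 1905 lower. Scaled by total counts only, which raised the median log2 fold change of all genes to 0.12, 10 members were higher and 1 lower. In that fit 2343 of the 15980 genes were higher and 1657 lower. Without the wild-type mouse 17.1% of the members were higher and 1.22% lower, beside 13.1% and 13.9% of all genes tested in that fit.

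With an absolute log2 fold change above 1 required as well, the study's thresholds, 1 member was higher (Cox7a1) and 1 lower (Cox6a2). Over all tested genes these thresholds called 4.59% higher and 9.03% lower. The block left only Cox6a2.

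The median log2 fold change of the 82 members was 0.07, beside 0.00 for all tested genes. The fold changes lay within 0.25 of 0 for 74.4% of the members and for 36.2% of all tested genes. For 78 of the 82 members the 95% interval of the log2 fold change lay wholly between -1 and 1, so for these genes a change of that size was outside the interval. The exceptions were Cox6a2, Cox7a1, Cox4i2 and Atp5s. Among the 6621 tested genes with mean normalized counts in the central range of the members, from 848 to 7253, 24.6% were called at adjusted p, beside 3.12% of the 64 members in that range.

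**Figure D1:**
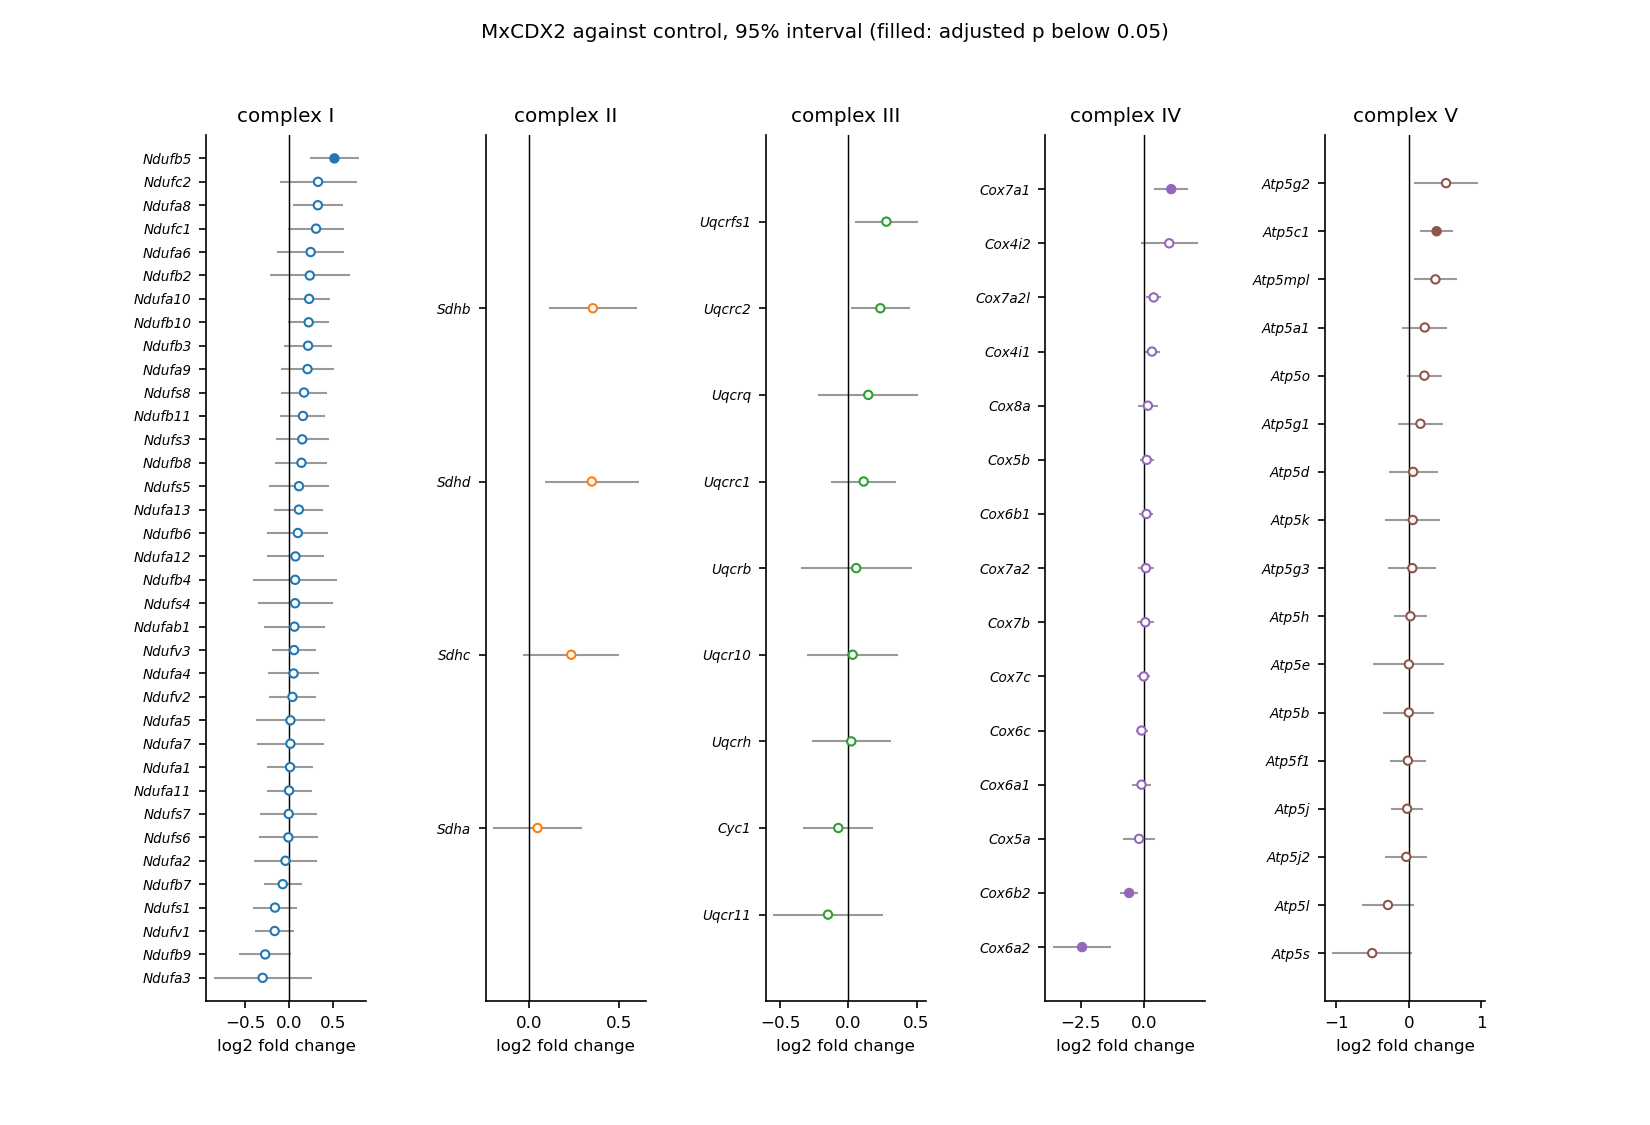
Log2 fold change of MxCDX2 against control for the tested subunits, by complex, with the 95% interval and 1 member of complex I not drawn; filled points passed an adjusted p of 0.05 and each panel has its own horizontal scale. Ndufb5, Cox7a1, Cox6b2, Cox6a2 and Atp5c1 are filled, and most other points lie close to 0.

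In complex I, the NADH dehydrogenase, 1 of 37 tested members was called and the median log2 fold change was 0.07. Ndufb5, an accessory subunit of the membrane arm (ENSMUSG00000027673, GRCm38 chromosome 3, 32736990 to 32751566, plus strand), had 1753, 1626 and 2027 normalized counts in controls 1 to 3 and 2558, 2470 and 2721 in MxCDX2 mice 1 to 3. Every MxCDX2 mouse was above every control. Its log2 fold change was 0.52 ± 0.12 (SE; n = 3 per group; edgeR adjusted p = 0.024). Leaving out any mouse but the wild type ended the call. Over all 6 fits with 1 mouse left out, the log2 fold change ranged from 0.45 to 0.63, with an edgeR adjusted p up to 0.10. Of its exon bases, 12.3% overlap Mrpl47 on the opposite strand.

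The next members of complex I by fold change were Ndufc2 and Ndufa8, accessory subunits, neither of which passed the test. Ndufc2 had a log2 fold change of 0.33 ± 0.18 (SE; edgeR adjusted p = 0.25) and Ndufa8 one of 0.33 ± 0.12 (SE; edgeR adjusted p = 0.096).

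At the low end stood Ndufa3 at -0.30, Ndufb9 at -0.27 and Ndufv1 at -0.17 on the log2 scale, none called. Ndufa3 shows the wild-type mouse plainly. Its normalized counts were 2875, 2431 and 4650 in controls 1 to 3 and 2737, 2579 and 2758 in MxCDX2 mice, and without the wild-type mouse its log2 fold change was 0.04. The 9 members of the NADH-oxidizing N module, which carries the flavin, ranged from -0.17 to 0.07 in log2 fold change, and none was called.

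Complex II, succinate dehydrogenase, also belongs to the tricarboxylic acid cycle. None of its 4 subunits was called by edgeR with all 6 mice, while DESeq2 called Sdhb (adjusted p = 0.047). Without the wild-type mouse 3 were called higher, Sdhb, Sdhd and Sdhc (edgeR adjusted p = 0.024, 0.041 and 0.044). In that fit 13.1% of all tested genes were higher. The median log2 fold change of the 4 subunits was 0.29 with all mice. Sdhb, the iron-sulfur subunit, had 4395, 4380 and 4955 normalized counts in controls and 5362, 6023 and 6179 in MxCDX2 mice, without overlap, and its log2 fold change of 0.36 ± 0.10 (SE) did not pass the test (edgeR adjusted p = 0.052). Sdhd, a membrane anchor, also did not overlap, with a log2 fold change of 0.35 ± 0.11 (SE; edgeR adjusted p = 0.065). Sdhc stood at 0.23 and Sdha, the flavoprotein, at 0.05 on the log2 scale.

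In complex III, none of 9 members was called by edgeR or by DESeq2. Uqcrfs1, the Rieske iron-sulfur protein, had the highest log2 fold change of the complex at 0.28 ± 0.10 (SE; edgeR adjusted p = 0.089), followed by the core protein Uqcrc2 at 0.23 and Uqcrq at 0.15. For Uqcrfs1 and Uqcrc2 every MxCDX2 mouse was above every control. The lowest were Uqcr11 at -0.15, Cyc1, which encodes cytochrome c1, at -0.07 and Uqcrh at 0.02.

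Complex IV, cytochrome c oxidase, held the 4 largest absolute log2 fold changes, all in genes of alternative subunit isoforms. Cox6a2, the isoform known from heart and skeletal muscle (ENSMUSG00000030785, GRCm38 chromosome 7, 128205435 to 128206387, minus strand), had 302, 283 and 861 normalized counts in controls 1 to 3 and 99.6, 73.5 and 91.4 in MxCDX2 mice 1 to 3. The groups did not overlap, although the wild-type mouse held far more than the other controls. The log2 fold change was -2.45 ± 0.49 (SE; n = 3 per group; edgeR adjusted p = 0.016), and -1.71 without the wild-type mouse (edgeR adjusted p = 0.006). The call was lost when MxCDX2 mouse 2 or 3 was left out, with an adjusted p of at most 0.066 (edgeR).

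Its widely used counterpart Cox6a1 did not pass the test, with a log2 fold change of -0.09 (95% interval -0.46 to 0.28). Per length of the principal transcript, Cox6a2 made up 4.56%, 4.70% and 9.31% of the Cox6a transcripts in controls 1 to 3 and 1.60%, 1.16% and 1.32% in MxCDX2 mice. This share was lower in every MxCDX2 mouse (exact two-sided permutation test, p = 0.10, the smallest value that 3 mice against 3 can give).

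Some markers of other cells were also lower in MxCDX2 mice, and others were not. Of 5 plasmacytoid dendritic cell markers, 3 (Siglech, Pacsin1 and Cd209d) fell, but with the replicate block their adjusted p were 0.051, 0.090 and 0.052 (edgeR) and only Ccr9 was called lower (adjusted p = 0.040, edgeR). Siglech, a surface receptor of these cells, had 3541, 2449 and 9160 normalized counts in controls and 1254, 1180 and 871 in MxCDX2 mice, with the wild-type mouse highest as for Cox6a2, while Tcf4, a transcription factor of the same list, was not called at a log2 fold change of 0.82. Without the wild-type mouse the same 3 markers were called lower and Tcf4 was called higher (adjusted p = 0.006, edgeR). The summed level of the list ranged from 6574 to 18920 normalized counts in controls and from 7431 to 9347 in MxCDX2 mice, so these ranges overlapped. The summed level of 6 megakaryocyte markers ranged from 21820 to 262000 in controls, highest in the wild-type mouse, and from 9941 to 13720 in MxCDX2 mice. With all mice 2 of these 6 were called lower, without the wild-type mouse 5, and with the block 1. The part of these cells in the Cox6a2 result was not tested. Of the exon bases of Cox6a2, 10.3% overlap Itgad on the opposite strand.

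Cox6b2, an isoform known from testis (ENSMUSG00000051811, GRCm38 chromosome 7, 4751792 to 4753094, minus strand), had 1133, 1290 and 1189 normalized counts in controls and 724, 923 and 772 in MxCDX2 mice. All MxCDX2 mice were below all controls, and the wild-type mouse lay between the other controls. The log2 fold change was -0.58 ± 0.14 (SE; n = 3 per group; edgeR adjusted p = 0.033). Leaving out any mouse but MxCDX2 mouse 2 ended the call. Over all 6 fits with 1 mouse left out, the log2 fold change ranged from -0.68 to -0.50, with an edgeR adjusted p up to 0.13. Its counterpart Cox6b1 stood at 0.11 (95% interval -0.17 to 0.39), and the share of Cox6b2 among Cox6b transcripts, per length, was 18.1% ± 2.4 (SD, n = 3) in controls and 12.05% ± 2.2 (SD, n = 3) in MxCDX2 mice.

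Cox7a1, the isoform known from heart and skeletal muscle (ENSMUSG00000074218, GRCm38 chromosome 7, 30184144 to 30186078, plus strand), had low counts. They were 29.4, 30.8 and 30.1 normalized counts in controls and 51.9, 70.5 and 70.5 in MxCDX2 mice. The groups did not overlap, and the log2 fold change was 1.09 ± 0.28 (SE; n = 3 per group; edgeR adjusted p = 0.037). It lost its call without any single mouse (log2 fold change 1.03 to 1.23, edgeR adjusted p up to 0.14). Cox7a2, the widely used counterpart, stood at 0.09 and was not called, and Cox7a1 made up 1.06% ± 0.13 (SD, n = 3) of the pair per length in controls and 2.10% ± 0.46 (SD, n = 3) in MxCDX2 mice.

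Most skeletal muscle markers had a positive log2 fold change beside Cox7a1, with a median of 1.85 over the 7 tested. Tnni2, a fast troponin, was called higher at 1.85 and Mylpf, a fast myosin light chain, was called lower at -1.20. The 5 not called were Ckm at 2.57, Pvalb at 2.08, Tnnt3 at 1.96, Myh4 at 1.62 and Acta1 at 1.41. Of these, all but Tnnt3 lay within the control range in MxCDX2 mouse 3. Without the wild-type mouse 2 markers were called higher and 1 lower. The summed level of the list ranged from 488 to 700 normalized counts in controls and from 726 to 1594 in MxCDX2 mice. The heavy chains Myh1 and Myh2 were too low to test, at 0 in every control. In MxCDX2 mice 1 to 3 Myh1 had 1.06, 7.84 and 0.87 normalized counts and Myh2 had 1.06, 0.98 and 1.74. The part of these markers in the Cox7a1 result was not tested.

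**Figure D2:**
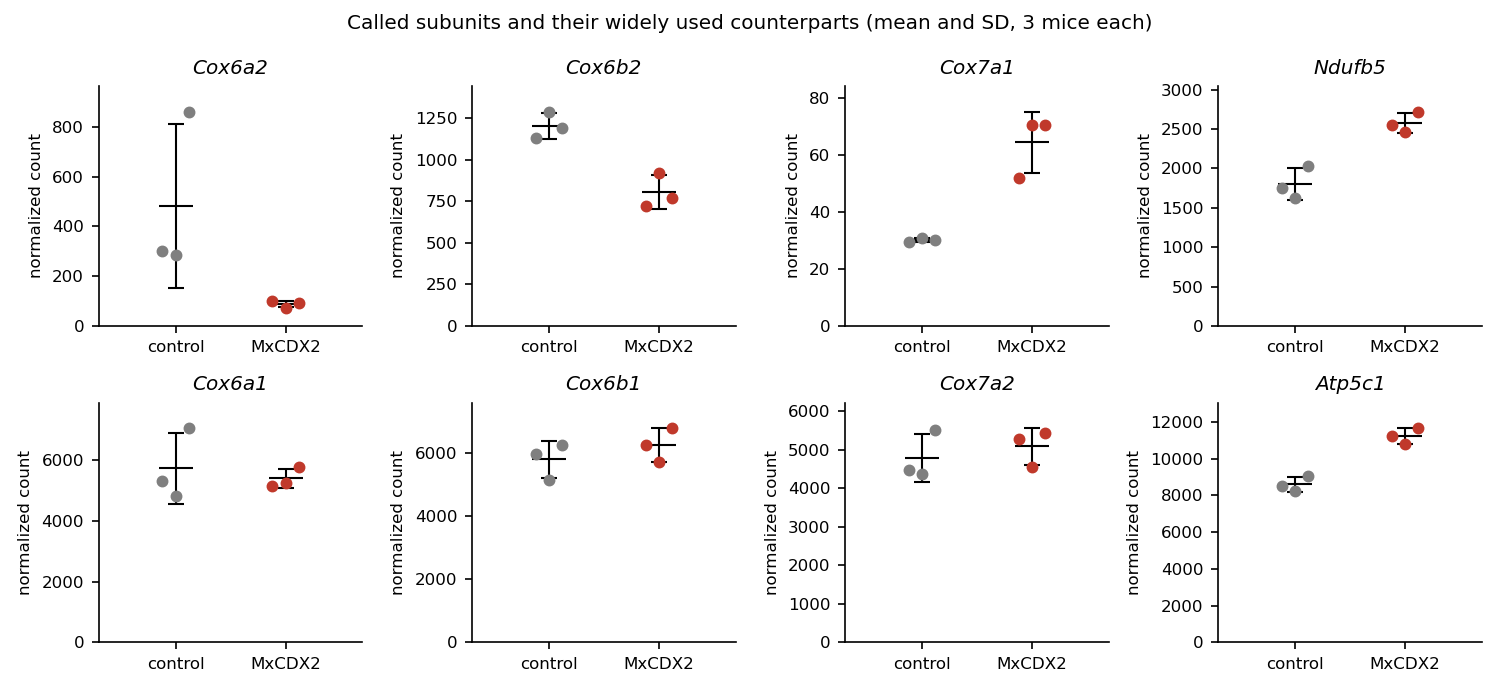
Normalized counts of the 5 called subunits and of the counterparts of the complex IV isoforms in each mouse, with the mean and SD of 3 mice per group on axes that start at 0. Cox6a2 and Cox6b2 lie lower and Cox7a1, Ndufb5 and Atp5c1 higher in every MxCDX2 mouse, while Cox6a1, Cox6b1 and Cox7a2 overlap.

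The other isoform genes of complex IV were not called. Cox4i2, an isoform known from lung and from cells short of oxygen, had 24.3, 12.9 and 28.3 normalized counts in controls and 44.5, 24.5 and 63.5 in MxCDX2 mice. These groups overlap, and the log2 fold change of 1.02 ± 0.48 (SE) did not pass the test (edgeR adjusted p = 0.18). Cox4i1, its abundant counterpart, stood at 0.33 ± 0.14 (SE; edgeR adjusted p = 0.14), and Cox7a2l, which takes part in joining complexes III and IV, at 0.40 ± 0.12 (SE; edgeR adjusted p = 0.059). Cox5a, next lowest after the called members, stood at -0.18, Cox7b at 0.06 and Cox8a at 0.17 on the log2 scale.

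Cox7b2, Cox8b, Cox8c and Ndufa4l2 were too low to test. Cox7b2 had 0 reads in every mouse, Cox8c had 1 read in the wild-type mouse and 0 in the others, and Cox8b had 0 reads in the controls and 4, 5 and 0 in MxCDX2 mice. Ndufa4l2 had 7, 7 and 12 reads in controls and 5, 8 and 10 in MxCDX2 mice. Ndufa4, its abundant relative, now counted among the subunits of complex IV, stood at 0.05 on the log2 scale.

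In complex V, 1 of 17 members was called and the median log2 fold change was 0.05. Atp5c1, the gamma subunit of the rotating central stalk (ENSMUSG00000025781, GRCm38 chromosome 2, 10056016 to 10080510, minus strand), had 8537, 8239 and 9044 normalized counts in controls and 11225, 10811 and 11660 in MxCDX2 mice. The groups did not overlap and the log2 fold change was 0.38 ± 0.09 (SE; n = 3 per group; edgeR adjusted p = 0.031). Leaving out any mouse but the wild type ended the call. Over all 6 fits with 1 mouse left out, the log2 fold change ranged from 0.35 to 0.44, with an edgeR adjusted p up to 0.13. The catalytic beta subunit Atp5b, the most abundant member per length, stood at 0.00 (95% interval -0.35 to 0.35).

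The c subunit of the membrane rotor is encoded by 3 genes that yield the same mature protein. Atp5g2 had 741, 650 and 978 normalized counts in controls and 1158, 1033 and 1194 in MxCDX2 mice, without overlap, and did not pass the test at a log2 fold change of 0.51 ± 0.18 (SE; edgeR adjusted p = 0.092). Atp5g1 stood at 0.16 and Atp5g3 at 0.05. Per length, Atp5g2 made up 8.02% ± 0.62 (SD, n = 3) of the c-ring transcripts in controls and 10.8% ± 0.44 (SD, n = 3) in MxCDX2 mice, Atp5g3 88.3% and 85.4% (exact two-sided permutation test, p = 0.10 for each). These shares rest on the principal transcript taken, of 4715 bases for Atp5g1, 731 for Atp5g2 and 723 for Atp5g3. They are also affected by near-identical pseudogenes, since multi-mapped reads were not counted. Atp5g2 matched Gm10175 at 100% identity over 645 bases, and Atp5g1 matched Gm10039 at 99.8% over 411 bases. No such pseudogene was found for Atp5g3. Before division by length, Atp5g1 held more normalized counts than Atp5g2 in controls (mean 2325 against 790).

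Other ends of the range in complex V were Atp5mpl, a small membrane proteolipid, at 0.37 (edgeR adjusted p = 0.077), Atp5s, a coupling factor, at -0.50 (edgeR adjusted p = 0.17), Atp5l, the g subunit, at -0.29 (edgeR adjusted p = 0.22) and Atp5j2 at -0.03. Atp5s and Atp5l were below the controls in every MxCDX2 mouse.

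Levels per length differed widely among the members. In controls the highest were Atp5b at 485 and Atp5e at 329 RPKM (reads per kilobase of principal transcript, scaled to the TMM-adjusted library size), and the lowest tested were Cox4i2 at 0.65 and Ndufb2 at 1.50 RPKM. The order depends on the principal transcript taken, of 4371 bases for Ndufb2 and 733 for Cox4i2. Their mean normalized counts in controls were 299 and 21.8. It is also affected by multi-mapped reads, which were not counted. For 21 members, 38 pseudogenes had at least 95% identity over at least 100 bases, among them Atp5g2, Atp5l, Ndufab1 and Ndufb4, so reads within those stretches may be missing from their levels.

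Across members, 17 (20.7%) had every MxCDX2 mouse above every control and 5 (6.1%) every MxCDX2 mouse below, beside 21.4% and 20.7% of all tested genes. The share above was close to the background. Of all gene reads, the members took 0.706%, 0.684% and 0.853% in controls 1 to 3 and 0.855%, 0.827% and 0.928% in MxCDX2 mice 1 to 3. The wild-type control thus lay within the range of the MxCDX2 mice, and the other controls lay below it.

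**Figure D3:**
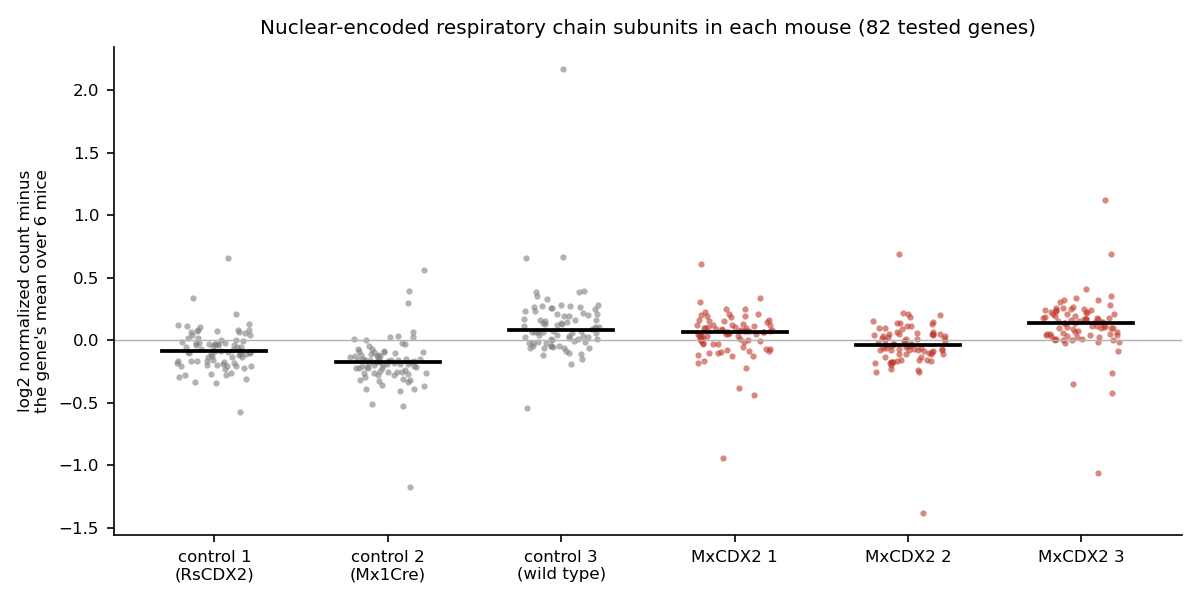
Log2 normalized count of each of the 82 tested subunits minus that gene's mean over the 6 mice, with a bar at the median of each mouse. The medians were -0.086, -0.173 and 0.082 in controls 1 to 3 and 0.064, -0.037 and 0.139 in MxCDX2 mice 1 to 3.

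For 74 of the 82 members (90.2%) the wild-type mouse had more normalized counts than the mean of the other controls, beside 49.9% of all tested genes. The median ratio was 1.17 over the members and 1.00 over all tested genes. Without the wild-type mouse, 14 members (17.1%) were higher at adjusted p and 1 (1.22%) lower, beside 13.1% and 13.9% of all genes tested in that fit, and the median log2 fold change of the members was 0.20, beside 0.04 for all genes. By complex, 5 members of complex I, 3 of complex II, 0 of complex III, 3 of complex IV and 3 of complex V were higher in that fit. Among the 14 were Ndufa6, Ndufa8, Ndufb5, Ndufc2, Sdhb, Sdhc, Sdhd, Cox4i1, Cox7a2l, Cox8a, Atp5c1, Atp5g2 and Atp5mpl, and the lower member was Cox6a2. Cox7a1 and Cox6b2 each had an adjusted p of 0.051 there (edgeR).

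**Figure D4:**
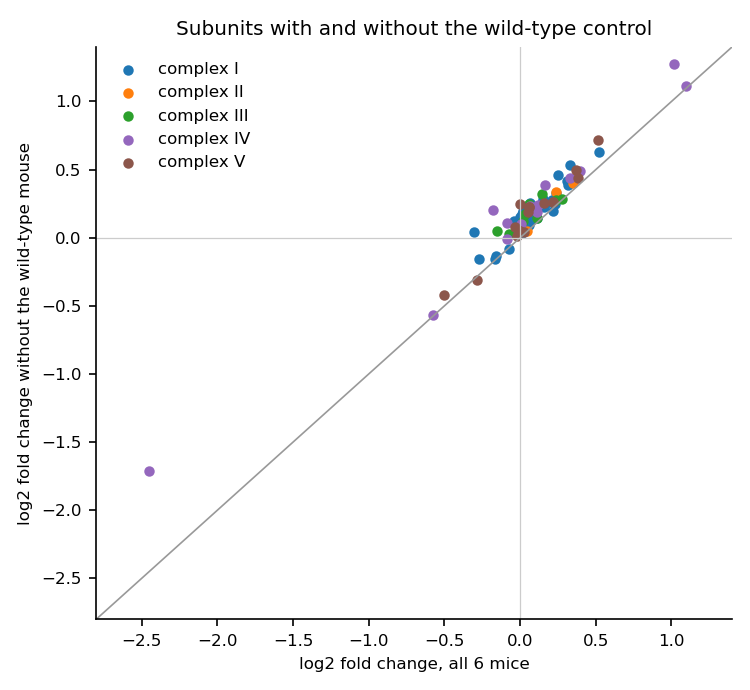
Log2 fold change of each tested subunit with all 6 mice (horizontal) and without the wild-type control (vertical), colored by complex, with a line of equality. Most points lie above the line, and the member medians are 0.07 and 0.20.

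The wild-type mouse and the other controls also differ in genotype, so genotype and mouse cannot be told apart. The ratio of the wild-type mouse to the other controls was higher for short transcripts. Its median was 1.24 in the 29 members with the shortest principal transcripts (371 to 680 bases) and 1.11 in the 28 longest (1142 to 4715 bases), and over 82 members that share these 3 libraries Spearman's rho with length was -0.29. With exon length, rho was -0.3 over the members and -0.16 over 13619 tested protein-coding genes, so the trend was not limited to the subunits. Between the members' log2 fold change and principal transcript length, rho was 0.26. The part of transcript length in the differences between mice was not tested.

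All 37 genes of the mitochondrial genome, including the 13 that encode subunits of complexes I, III, IV and V, were listed at 0 in every mouse, so they could not be compared. Near-identical nuclear copies held reads. The unprocessed pseudogene Gm13340 on chromosome 2, 97.6% identical to mt-Co1, had 148192, 229683 and 242264 reads in controls and 150211, 259967 and 205480 in MxCDX2 mice. Its groups overlap (log2 fold change -0.11 ± 0.27, SE; edgeR adjusted p = 0.81), and whether its reads came from the nuclear or the mitochondrial copy cannot be told apart.

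Other genes of mitochondrial respiration were followed in lists. The counts below stand beside 9.91% of all tested genes higher and 11.8% lower with all 6 mice. Without the wild-type mouse the shares of all genes tested in that fit were 13.1% higher and 13.9% lower. Of 53 tested assembly factors, 2 were called, both higher, and the median log2 fold change was 0.15. They were Dmac1, a factor of complex I assembly, at 0.85 and Higd2a, a factor of complex IV and supercomplex assembly, at 0.43. Without the wild-type mouse 8 assembly factors were called, all higher, with a median of 0.28. Of 76 tested mitochondrial ribosomal proteins, 4 were called, all higher, with a median of 0.09, led by Mrpl23 at 1.06 and Mrpl19 at 0.57, while the smallest rises were Mrpl37 at 0.36 and Mrpl44 at 0.54. With the block, Mrpl19 and Mrpl37 had adjusted p of 0.069 and 0.067 and Mrps23 was gained (adjusted p = 0.042, edgeR), which left 3 called. Leaving out the wild-type mouse gave 6 calls, all higher, with a median of 0.17.

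Among 19 tested genes of electron carriers and coenzyme Q synthesis, 2 rose and 1 fell. Cycs, which encodes cytochrome c, the carrier between complexes III and IV, had 1986, 1739 and 1748 normalized counts in controls and 3681, 3068 and 3640 in MxCDX2 mice. These groups lie far apart, at a log2 fold change of 0.93 ± 0.12 (SE; edgeR adjusted p = 0.0037). Coq10a, a coenzyme Q binding protein, rose by 0.76 and Coq4, of coenzyme Q synthesis, fell by 0.79 on the log2 scale. With the block, Coq10b, a paralog of Coq10a, was also called lower (adjusted p = 0.049, edgeR).

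Of 18 tricarboxylic acid cycle enzymes, 2 were called, both higher. Fh1, fumarase, which acts on the product of complex II, had 3449, 3213 and 3138 normalized counts in controls and 5809, 7623 and 7194 in MxCDX2 mice. The groups lie apart, and the fold change was 1.07 ± 0.13 on the log2 scale (SE; edgeR adjusted p = 0.003). Idh2, the mitochondrial NADP-dependent isocitrate dehydrogenase, rose by 0.62. In the fit without the wild-type mouse, 3 of these enzymes were called higher and 1 lower. Of 17 genes of mitochondrial mass and import, Slc25a5, an ADP/ATP carrier, rose by 0.42 and the other 16 were not called. With the block its adjusted p was 0.057 (edgeR) and Slc25a4, another ADP/ATP carrier, at a log2 fold change of 0.66, was called higher instead (adjusted p = 0.040, edgeR). Without the wild-type mouse both carriers were called higher, and the median of the list moved from 0.07 to 0.23.

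Of 21 regulators of respiratory gene transcription and mitochondrial DNA, 1 was called. Ppargc1a, a coactivator known to raise transcription of respiratory genes, had 21.7, 33.8 and 19.2 normalized counts in controls and 239, 218 and 367 in MxCDX2 mice. Every MxCDX2 mouse was several times above every control, at a log2 fold change of 3.46 ± 0.37 (SE; edgeR adjusted p = 0.0024), while the subunit genes had a median of 0.07. A further regulator, Nrf1, was called lower without the wild-type mouse (adjusted p = 0.025, edgeR).

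Promoter sequences, 250 bases before to 50 after the start, were at hand in RefSeq (GRCm38.p6) for 67 of the 86 members, with 72 starts. They were searched on both strands for letters typical of factors known from respiratory genes and for those of CDX proteins, and a match is a description of the sequence alone. GCGCATGC, the core of the NRF1 motif, stood in 13.9% of the member promoters and in 2.71% of all 32817 promoters. CCGGAAG, an ETS type motif, stood in 22.2% and 8.86%, AAGATGGC, a YY1 motif, in 12.5% and 2.74%, and TTTATG, a CDX type motif, in 5.56% and 11.9%. The NRF1 letters overlap their own reverse complement, GCATGCGC, and each promoter was counted once. Base composition was not matched between the sets. None of these motifs was in the windows of Ndufb5, Atp5c1, Cox7a1 or Cox6b2, and Cox6a2 had no entry.

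The following stretches show the matches in the widely used counterparts of the called isoforms and in Atp5g2, with the matched letters in capitals, read 5′ to 3′ on the minus strand of each gene.
Cox6a1, NRF1, chr5:115349104-115349129: aggaacgggGCGCATGCgcgctctcg
Cox6a1, ETS, chr5:115348958-115348983: ccatttccgCTTCCGGcgcgccggtg
Cox6b1, ETS, chr7:30626126-30626151: ctctcgcagCTTCCGGccagtcggaa
Atp5g2, NRF1, chr15:102671073-102671098: gctccggccGCGCATGCgcagagcct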

How the data were processed

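The authors aligned stranded mRNA reads with STAR 2.5 to GRCm38, took gene counts from HTSeq 0.6.1 (versions also in the submitters' processing notes); they deposited raw counts, 1 file per mouse. HTSeq's strand setting is not given in the sources used here. Symbols came from GENCODE M21. Counts were tested in R 4.3.3 with edgeR 4.0.16 (TMM, default filterByExpr, glmQLFit, glmQLFTest; Benjamini-Hochberg over 15980 genes), with DESeq2 1.42.0 and limma 3.58.1 (voom) as alternatives. The study itself used DESeq2. Standard errors were derived from the quasi-likelihood statistic. Scripts were tested on simulated data. Other tools were Python 3.11.15, pandas 2.3.3, scipy 1.17.1, matplotlib 3.10.9 and blastn 2.17.0.

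The members and lists were chosen with earlier results of these data known. Genes named were members past both thresholds, isoform pairs, the 3 highest and 3 lowest fold changes per complex, the extremes of level and p-value, members that failed the filter, and in each list the extremes among called genes; further genes were named after their values were seen. Replicate numbers came from the labels, which do not say that equal numbers mark a shared batch. Deviations from the group mean correlated at 0.169, 0.286 and 0.182 for same-numbered mice and from -0.328 to 0.103 for the other pairs. A fit with that block was run for this reason, and whether the numbers mark a true pairing was not tested. With 38646101 to 49899650 counts per mouse, the spread between mice limits precision. The values of 1 member are not reported one by one here.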

Additional observations from a re-analysis of the deposited data

How the results depend on the processing

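Scaling and filters moved the counts of called subunits, and all the calls rest on few mice. Main counts were 2 members past both thresholds, 3 higher and 2 lower. Scaling by total counts only gave 10 higher and 1 lower, beside 2343 and 1657 of all 15980 tested genes. It moved the median log2 fold change of all genes from 0.00 to 0.12 and that of the members to 0.18. Leaving out the 10 most abundant and the globin genes gave 5 higher. Testing every gene with at least 1 count gave 1 past both thresholds and 1 lower. An adjusted p below 0.01 gave 0 of each kind. With the replicate block, 1 was past both thresholds, 1 higher and 2 lower, and the block changed the calls of Atp5c1 and Cox7a1 and of no other member. With 1 mouse left out, the count past both thresholds ranged from 0 to 1, higher members from 0 to 14 and lower members from 0 to 1; the 14 came without the wild-type control, and each other fit gave 0 higher. The median log2 fold change of the members stayed above 0 in every fit, from 0.028 to 0.200. Of 600 values of 40 named members, 547 kept their side of the threshold, 33 lost a call, 20 gained one and none that was called in either fit changed sign. The comparison of mitochondrially encoded subunits gave no value, since all were listed at 0.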
